A study of Homo sapiens with 6 samples.

Results

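The 40 genes described here encode RNA polymerase I, its initiation factors and the nucleolar proteins that turn its transcript into ribosomal subunits. Members were listed by gene symbol, and every probe set annotated to a member was taken. The list drew 86 of the 54675 probe sets of the array. Of the 40 genes, 35 had a probe set annotated to them alone and entered the test of 16868 genes, and all 35 lay above the filter on dim genes. Another 4 (NOP56, DKC1, BOP1 and PPAN) were covered only by probe sets that the annotation shares with other transcripts, and GNL3 was not analysed here.

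Ribosome production starts in the nucleolus, where RNA polymerase I transcribes the precursor of the 18S, 5.8S and 28S ribosomal RNAs. The factor RRN3 and the DNA-binding protein UBTF bring the polymerase to the ribosomal DNA. Small nucleolar ribonucleoproteins (snoRNPs) modify the precursor, the small subunit processome folds and cuts its 18S part, and a separate series of factors builds the large subunit. Many of these genes are known targets of MYC, and their products set the growth capacity of tumour cells.

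DMS-53 is a human small cell lung cancer line. It was kept for 24 h in RPMI medium alone (control), in medium with 250 µM DFO (desferrioxamine, an iron chelator that enters cells poorly) or in medium with 25 µM Dp44mT (a membrane-permeable thiosemicarbazone chelator of iron and copper). Each group had 2 Affymetrix U133 Plus 2.0 arrays, numbered set 1 and set 2. Nothing in the labels says that the arrays of a group were hybridised with RNA of different cultures. The p-values therefore rest on array-to-array spread alone, and that spread may be purely technical.

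The chelator arrays of set 2 stood apart. Their median intensities were 63.0 (DFO) and 49.9 (Dp44mT), against 83.6 to 88.9 on the other 4 arrays, and values were therefore quantile normalized on the log2(intensity + 16) scale. Neuroendocrine markers were present on every array (11 of 11 measured above the filter limit in every group), as were 6 of 6 epithelial markers. The neuroendocrine markers summed to 24457 and 26916 in control, 20164 and 20097 in DFO, and 19469 and 18713 in Dp44mT (normalized intensity, set 1 then set 2). The 12 fibroblast markers summed to 1959 and 1172 in control, 1920 and 3505 in DFO, and 2090 and 4015 in Dp44mT. The 7 endothelial markers summed to 809 and 411, 769 and 1737, and 760 and 2135. Of these, 4 lay above the filter and 1 (CDH5) was under 16 units on all arrays. Those above the filter had median log2 differences of −0.05 and 0.96 in DFO and −0.14 and 0.93 in Dp44mT (set 1, then set 2). The 7 leukocyte markers measured summed to between 329 and 524. The ratio of 3' to 5' signal ran from 1.14 to 1.41 for ACTB and from 0.967 to 1.01 for GAPDH. The part of these set differences in the results below was not tested, and values are given for each set. Known responders to iron loss rose with both agents: NDRG1 by 2.11 and 2.02 and VEGFA by 2.49 and 2.33 on the log2 scale (DFO, then Dp44mT; limma adjusted p between 0.0119 and 0.0223). TFRC, the transferrin receptor, stood at 0.84 and 0.70 and did not pass.

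As a whole the members lay below control with either chelator, but the shift was small for most of them and a single gene passed the test by itself. After DFO the members' median log2 difference was −0.54 (a 1.45-fold lower level) and 31 of 35 were below 0, against a median of −0.04 and 53.5% below 0 over all genes tested. After Dp44mT the median was −0.48 (1.40-fold) and 29 of 35 were below 0, against 0.03 and 48.3%. The 140 other genes of the pathway tested had medians of −0.32 and −0.31, with 115 and 105 below 0. Members and lists were chosen with earlier results of these data known, so these counts are a description. Both chelators were compared with the same 2 control arrays, and 28 members were below 0 in both comparisons. Values are relative to the other RNAs on an array, so fewer cells and less RNA per cell cannot be told apart, and a change in total RNA would not be seen.

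The 2 arrays of a chelator both lay below both control arrays in 27 of 35 members for DFO (30.0% of all genes tested) and in 25 of 35 for Dp44mT (33.1%). Both lay above in 3 members for each agent (17.1% and 30.3% of all genes). At an adjusted p under 0.05 (limma's moderated test, Benjamini-Hochberg over all genes tested), 1 of 35 members was lower in DFO and 1 of 35 in Dp44mT, and 0 were higher in either. Over all genes, 0.0593% were called lower and 1.04% higher in DFO, and 1.46% lower and 1.91% higher in Dp44mT. At an unadjusted p under 0.05, 10 members were lower and 0 higher in DFO (7.59% and 5.76% of all genes), and 10 were lower and 1 higher in Dp44mT (15.9% and 8.21%).

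**Figure D1:**
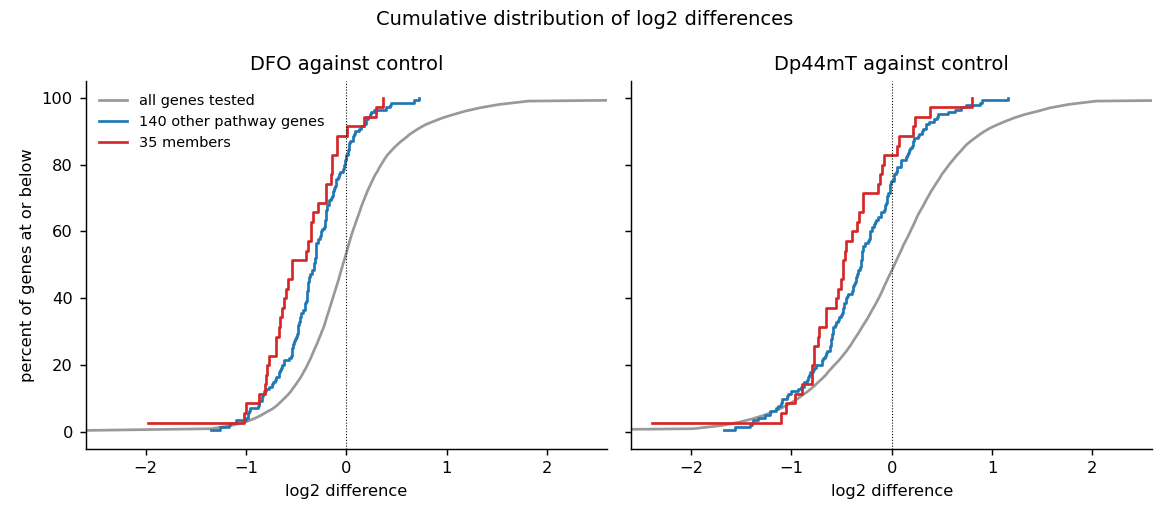
Percent of genes at or below each log2 difference (x axis) for the 35 members (red), 140 other genes of the pathway (blue) and all genes tested (grey), for DFO (left) and Dp44mT (right) against control. The members' curve crosses 0 at 31 of 35 genes for DFO and 29 of 35 for Dp44mT and lies left of the curve for all genes there.

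The shift was present in both sets but differed in size. In set 1 the members' median was −0.28 for DFO and −0.17 for Dp44mT, and in set 2 it was −0.61 and −0.70, while the medians over all genes stayed between −0.10 and 0.02 in these 4 comparisons. A total of 30 members were lower in both sets for DFO, and 25 for Dp44mT. The value was lower in set 2 than in set 1 in 27 of 35 members for DFO and 32 of 35 for Dp44mT. Shares over all genes were not computed for these counts. Set by set, 30 and 32 members were below 0 for DFO, against 10267 and 8993 of 16868 genes. For Dp44mT it was 25 and 31 members, against 8223 and 8966 genes. Without both set 2 chelator arrays, 32 and 29 members were still below 0, and the medians were −0.35 and −0.28. Of all genes, 59.0% and 45.8% were below 0 there, with medians of −0.08 and 0.05.

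RRS1 was the member that passed. It encodes a nucleolar factor that, with RPF2, brings the 5S ribonucleoprotein into the growing large subunit. Its deposited intensities were 908 and 1173 in control, 292 and 129 in DFO, and 173 and 76.9 in Dp44mT (set 1, then set 2). Every chelator array lay below both control arrays, and after normalization both Dp44mT arrays lay below both DFO arrays. RRS1 fell by 3.93-fold in DFO (log2 −1.98, SE 0.22, 95% interval −2.55 to −1.41, n = 2 arrays per group, limma adjusted p = 0.0333). In Dp44mT it fell by 5.23-fold (log2 −2.39, SE 0.22, 95% interval −2.96 to −1.82, n = 2 arrays per group, limma adjusted p = 0.0167). The difference between the chelators was −0.41 (95% interval −0.98 to 0.16, limma adjusted p = 0.922). With a gene's probe sets averaged, the RRS1 differences from control stayed at −1.98 and −2.39. RRS1 was thus read from a single probe set, and no other one annotated to it alone could check these values.

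The sets gave similar values for RRS1: −1.74 and −2.21 in DFO and −2.17 and −2.61 in Dp44mT. The call in DFO ended on the deposited scale (log2 −2.31, adjusted p = 0.288), with array medians subtracted in place of quantile normalization (−2.09, adjusted p = 0.0624), with only the 2 groups compared in the fit (adjusted p = 0.0709), without both set 2 chelator arrays (adjusted p = 0.0686), and with any 1 of the 6 arrays left out (RRS1 adjusted p between 0.0709 and 0.404). The RRS1 difference itself stayed between −1.79 and −2.17 with 1 array left out. With a control or DFO array left out, 0 of 16868 genes were called in DFO, so the loss is not particular to RRS1. Without both set 2 chelator arrays, which leaves 1 array per chelator, RRS1 stood at −2.22 in Dp44mT. In Dp44mT the call held on the deposited scale, with array medians subtracted and with only the 2 groups compared (limma adjusted p between 0.0189 and 0.0412). It ended when a control or a Dp44mT array was left out (RRS1 adjusted p between 0.0688 and 0.254), where again 0 genes were called. The other calls named here end in the same way.

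**Figure D2:**
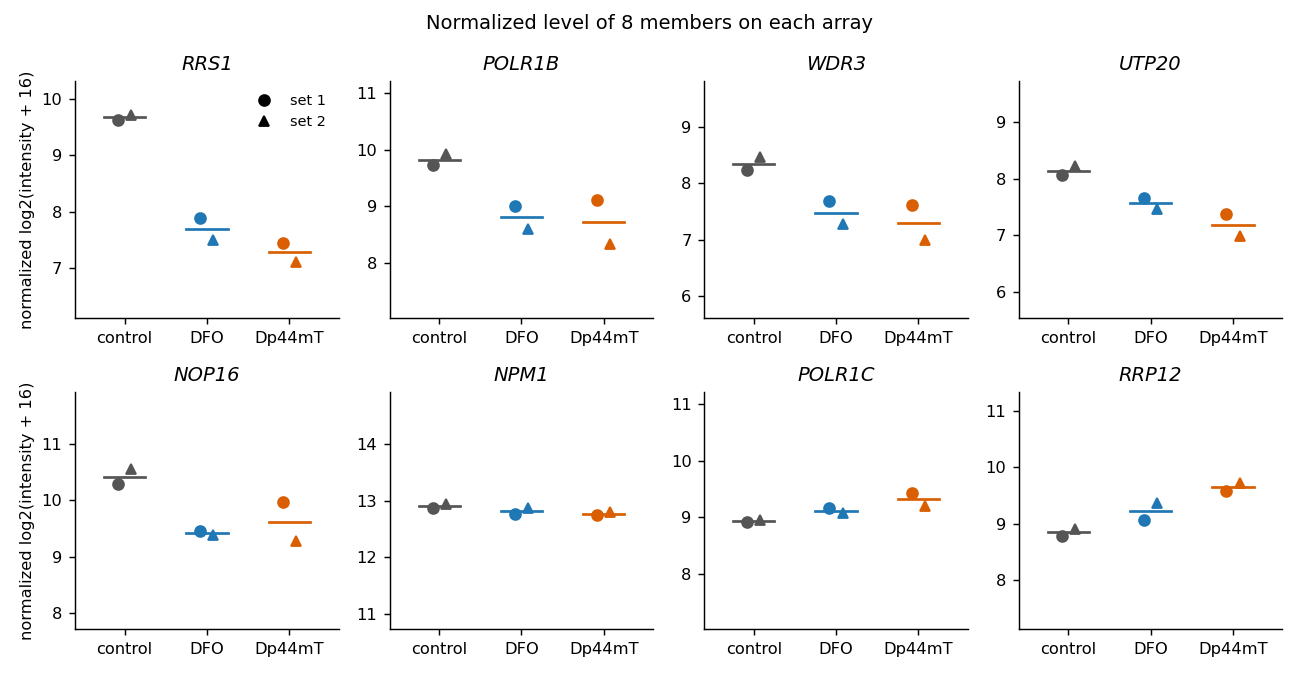
Normalized log2(intensity + 16) of 8 members on each array (circles, set 1; triangles, set 2; bars, mean of the 2 arrays), with the same span of values on each y axis. RRS1, POLR1B, WDR3 and UTP20 lie lower on all 4 chelator arrays than on both control arrays, NPM1 varies little, and RRP12 lies higher.

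RNA polymerase I and its initiation factors had 5 of 7 members below 0 with each agent, and 0 passed the test. The group's median was −0.35 in DFO (−0.25 in set 1, −0.50 in set 2) and −0.46 in Dp44mT (−0.17 and −0.74). POLR1B, the second-largest subunit, had the lowest values of the group. Its intensities were 974 and 1366 in control, 688 and 274 in DFO, and 584 and 173 in Dp44mT, so that every chelator array lay below both control arrays. The log2 difference of POLR1B was −1.02 (SE 0.32, limma adjusted p = 0.281) in DFO and −1.10 (SE 0.32, adjusted p = 0.124) in Dp44mT.

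The 4 probe sets of POLR1B disagreed in size. The other 3 gave −1.20, −1.37 and −0.20 in DFO and −1.99, −1.78 and −0.06 in Dp44mT. None of the 4 passed in the fit over 41006 probe sets, in which RRS1 had the sole call among the members' probe sets for each agent (0.0195% of probe sets were called lower and 0.568% higher in DFO, and 0.563% and 1.07% in Dp44mT). With a gene's probe sets averaged, POLR1B passed in Dp44mT (log2 −1.24, limma adjusted p = 0.0423).

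POLR1A, the largest subunit, stood at −0.54 in DFO and −0.66 in Dp44mT, but its set 1 value for Dp44mT was −0.01 against −1.31 in set 2. POLR1E, the subunit also named PAF53, stood at −0.64 and −0.46. UBTF stood at −0.35 and −0.32, with set values between −0.26 and −0.40. TCOF1, which encodes treacle, a nucleolar partner of UBTF, stood at −0.28 and −0.48.

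POLR1C, a subunit shared with RNA polymerase III, had positive values. Its intensities were 569 and 651 in control, 769 and 381 in DFO, and 743 and 312 in Dp44mT. The normalized difference was 0.18 in DFO and 0.38 in Dp44mT (limma adjusted p = 0.708 and 0.259), and it turned to −0.16 and −0.33 on the deposited scale, where all genes had medians of −0.325 and −0.503. RRN3, the growth-regulated initiation factor, stood at 0.30 and 0.23, at −0.06 and −0.48 on the deposited scale, and in Dp44mT at −0.11 with array medians subtracted (all genes −0.13). In both genes, normalized values of all 4 chelator arrays except that of RRN3 on the Dp44mT array of set 2 lay above both control arrays.

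Among the remaining genes of the RNA polymerase I list, 0 of 14 passed for either agent, and the medians were −0.11 and −0.03. When subunits were divided after their values were seen, the 6 subunits specific to RNA polymerase I (POLR1A, POLR1B, POLR1E, POLR1F, POLR1G and POLR1H) had medians of −0.59 and −0.58, with 6 and 5 of them below 0. The 7 subunits shared with other polymerases had medians of 0.09 and 0.14. The RNA polymerase III genes and factors, 20 measured, had medians of −0.20 and −0.26, and 0 passed.

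The snoRNP proteins and nucleolar scaffold genes had medians of −0.10 in DFO and −0.13 in Dp44mT over 5 genes, and 0 passed. These medians depended on the scaling. With array medians subtracted they were −0.28 and −0.44 (all genes −0.098 and −0.13). On the deposited scale they were −0.51 and −0.81 (all genes −0.325 and −0.503). NPM1, the abundant nucleolar chaperone, had intensities of 8388 and 8344 in control, 8369 and 6193 in DFO, and 7977 and 5112 in Dp44mT. After normalization NPM1 differed by −0.09 and −0.13, with 95% intervals from −0.51 to 0.32 and from −0.55 to 0.28, and its DFO value turned to 0.01 with array medians subtracted. FBL, the methyltransferase of box C/D snoRNPs, had intensities of 4461 and 5708 in control, 5450 and 3268 in DFO and 4632 and 2456 in Dp44mT. Its normalized difference was 0.01 and −0.09 (95% intervals −0.41 to 0.43 and −0.51 to 0.33), and the sign for DFO turned to −0.03 with array medians subtracted and to −0.26 on the deposited scale. NOP58, a core protein of the same particle, stood at −0.10 and −0.12.

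NOLC1, a chaperone of snoRNPs in the nucleolus and Cajal bodies, was the lowest of the group. Its intensities were 3140 and 4104 in control, 3006 and 1463 in DFO, and 2413 and 931 in Dp44mT. The normalized differences of NOLC1 were −0.36 and −0.56 (limma adjusted p = 0.494 and 0.154), and with an intensity trend in the variance prior the second passed (adjusted p = 0.0435). NCL, the RNA-binding scaffold protein nucleolin, stood at −0.20 and −0.34 and also passed in Dp44mT under that setting alone (NCL adjusted p = 0.0477).

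Probe sets shared with other transcripts are listed for 2 more genes of this role. The 3 probe sets annotated to DKC1 (the pseudouridine synthase dyskerin) together with small RNAs gave between −0.56 and −0.90 in DFO and between −0.66 and −0.97 in Dp44mT. The 2 annotated to NOP56 and small RNAs gave −0.15 and −0.54 in DFO and 0.32 and −0.39 in Dp44mT. None passed, and neither gene's own level can be read from them alone. Of 16 further snoRNP assembly genes, 13 were below 0 with each agent and 0 passed.

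**Figure D3:**
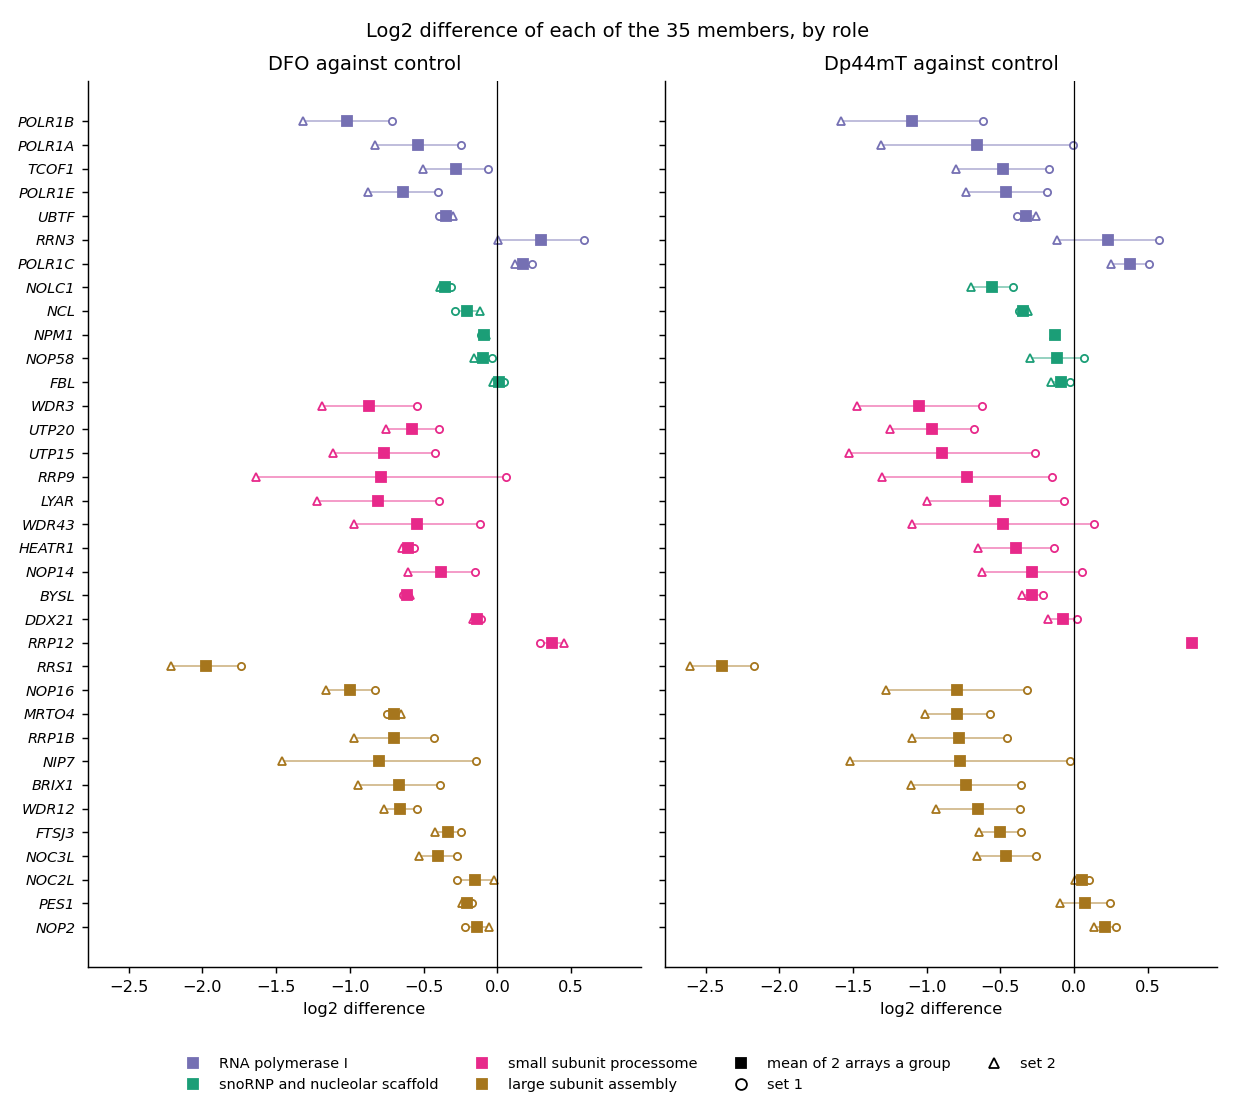
Log2 difference of each of the 35 members from control for DFO (left) and Dp44mT (right), coloured by role. Filled squares are the means of 2 arrays per group and open symbols the values within set 1 (circles) and set 2 (triangles). RRS1 lies at −1.98 and −2.39, away from the other members, and RRP12 has the highest value in both panels.

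Genes of the small subunit processome and early precursor processing had 10 of 11 members below 0 with each agent, and 0 passed. Medians were −0.61 in DFO (−0.40 in set 1, −0.76 in set 2) and −0.48 in Dp44mT (−0.14 and −1.001). WDR3, a subunit of the UTP-B complex, had the lowest value of this role. Its intensities were 352 and 443 in control, 248 and 110 in DFO, and 194 and 70.7 in Dp44mT, without overlap between chelator and control arrays. WDR3 differed by −0.87 (SE 0.29, limma adjusted p = 0.303) and −1.05 (SE 0.29, adjusted p = 0.113).

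UTP20, which takes part in early processing of both subunits, had intensities of 310 and 365 in control, 243 and 126 in DFO, and 164 and 70.2 in Dp44mT. After normalization both Dp44mT arrays lay below both DFO arrays, and these below both control arrays. UTP20 differed by −0.58 and −0.96 (SE 0.22 for each), and its adjusted p in Dp44mT, 0.0814 in limma, was the smallest among the 34 members that did not pass. The members of the UTP-A complex, which binds the precursor while it is transcribed, stood at −0.77 and −0.90 for UTP15, −0.61 and −0.39 for HEATR1 and −0.54 and −0.48 for WDR43. For WDR43 the set 1 value in Dp44mT was 0.13.

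RRP9, a protein of the U3 snoRNP, was the dimmest member. It stood at −0.79 and −0.73 with a large spread (SE 0.56): its DFO intensities were 127 and 25.2 against 121 and 148 in control. LYAR, a nucleolar zinc finger protein, stood at −0.81 and −0.53, BYSL (bystin, needed late in small subunit assembly) at −0.62 and −0.28, and NOP14 at −0.38 and −0.29. The helicase gene DDX21 stood at −0.14 and −0.08 (95% intervals −0.60 to 0.32 and −0.54 to 0.39).

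RRP12, which takes part in export of pre-ribosomal subunits from the nucleus, had the highest value of all members with each agent. Its intensities were 517 and 631 in control, 721 and 466 in DFO, and 827 and 450 in Dp44mT. After normalization all 4 chelator arrays lay above both control arrays. RRP12 differed by 0.37 (SE 0.19, limma adjusted p = 0.495) in DFO and by 0.80 (SE 0.19, 95% interval 0.32 to 1.28, adjusted p = 0.0899) in Dp44mT, with 0.80 in each set. Its 5 probe sets did not agree: 2 gave −0.13 and −0.11 in DFO and 0.07 and 0.06 in Dp44mT, and 1 rested on a low control array (344 and 22.4) and gave 1.66 and 1.71. The remaining one gave 0.09 and 0.53. RRP12 stood at 0.02 and 0.09 on the deposited scale and at 0.25 and 0.47 with array medians subtracted, above the all-gene median in each.

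As a description only, the members' promoters were searched for the canonical E-box CACGTG, which MYC and MAX bind. RefSeq promoters (GRCh38.p14) were found for 32 of the 40 genes, in 40 windows, and the 250 bases before the start were read on both strands. The other 8 genes had no window and were not searched: RRS1, RRP12, POLR1E, TCOF1, NOP58, NOLC1, BOP1 and RRP1B. The E-box was present in 3 of 40 member windows (7.50%) and in 6.34% of all 35116 windows. Its inner ACGTG, the core of the hypoxia response element, was present in 9 member windows (22.5%) and in 18.5% of all windows, a count that includes the windows with the E-box. A CG-rich palindrome of 10 bases, also searched, was found in 1 member window, that of NOP14 (2.50%, and 0.373% of all windows). A match is a description of these letters, not a binding site. The 3 windows with the E-box are shown because they are the member windows that hold it, and capitals mark the E-box. They are UTP20 (chr12:101279855-101280104, plus strand), LYAR (chr4:4290022-4290271, minus strand) and DDX21 (chr10:68956397-68956646, plus strand), in which the E-box begins 10, 64 and 31 bases before the start.
UTP20: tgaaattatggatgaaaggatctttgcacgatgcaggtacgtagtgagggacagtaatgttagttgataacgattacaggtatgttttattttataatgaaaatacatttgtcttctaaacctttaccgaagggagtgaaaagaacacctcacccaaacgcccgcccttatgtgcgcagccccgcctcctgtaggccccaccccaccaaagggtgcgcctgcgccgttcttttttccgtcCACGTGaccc
LYAR: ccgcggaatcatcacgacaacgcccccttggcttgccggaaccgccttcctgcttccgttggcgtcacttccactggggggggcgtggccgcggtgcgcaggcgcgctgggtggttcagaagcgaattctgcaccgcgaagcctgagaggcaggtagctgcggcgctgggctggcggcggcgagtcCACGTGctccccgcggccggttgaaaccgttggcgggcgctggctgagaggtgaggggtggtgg
DDX21: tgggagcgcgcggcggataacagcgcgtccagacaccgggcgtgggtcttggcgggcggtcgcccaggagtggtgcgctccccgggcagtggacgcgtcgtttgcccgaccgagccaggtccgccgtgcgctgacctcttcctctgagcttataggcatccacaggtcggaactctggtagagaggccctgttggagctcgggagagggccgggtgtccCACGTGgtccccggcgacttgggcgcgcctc
The values of these 3 genes after DFO and Dp44mT were −0.58 and −0.96 for UTP20, −0.81 and −0.53 for LYAR, and −0.14 and −0.08 for DDX21. DDX21 and LYAR each have a second promoter window, and neither of those holds the E-box.

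Of 43 further genes of the small subunit, 38 were below 0 in DFO and 34 in Dp44mT (medians −0.32 and −0.30), and DIMT1 passed in Dp44mT. DIMT1, the enzyme that dimethylates adenosines near the 3' end of 18S ribosomal RNA, fell by 1.41 on the log2 scale in Dp44mT (limma adjusted p = 0.0464) and stood at −1.26 in DFO (adjusted p = 0.103). Intensities of DIMT1 were 1070 and 1645 in control, 573 and 305 in DFO, and 475 and 178 in Dp44mT.

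The large subunit factors had all 12 members below 0 in DFO and 9 of 12 in Dp44mT. Medians were −0.66 (−0.34 in set 1, −0.71 in set 2) and −0.69 (−0.34 and −0.98), and RRS1 was the member of this role that passed. NOP16 had intensities of 1430 and 2182 in control, 960 and 472 in DFO, and 1106 and 328 in Dp44mT. It stood at −0.997 in DFO (SE 0.28, limma adjusted p = 0.24) and −0.80 in Dp44mT (adjusted p = 0.173). A bright second probe set of NOP16 gave −0.83 with each agent, while 2 dim ones gave 0.48 and 0.14 in DFO and 0.72 and 0.52 in Dp44mT. MRTO4, a nuclear relative of the ribosomal stalk protein, stood at −0.70 and −0.79, with a second probe set at −0.57 and −0.78. RRP1B, BRIX1 and NIP7, which take part in processing and assembly of large subunit precursors, stood between −0.67 and −0.80 in DFO and between −0.74 and −0.78 in Dp44mT. For NIP7 the values came almost wholly from set 2 (−1.46 and −1.52, against −0.15 and −0.03 in set 1).

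The partners of the PeBoW complex, needed for maturation of 28S and 5.8S ribosomal RNA, gave unlike values. WDR12 stood at −0.66 and −0.65, and all chelator arrays were below both control arrays. PES1 stood at −0.21 and 0.07 (95% intervals −0.65 to 0.24 and −0.37 to 0.52), and at −0.24 in Dp44mT with array medians subtracted (all genes −0.13). The 2 probe sets shared by BOP1 and a microRNA gave −0.50 and −0.36 in DFO and −0.21 and −0.05 in Dp44mT, and the probe set shared by PPAN and its readthrough transcript gave −0.31 and −0.49. The differences between these partners were not tested.

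NOP2, a methyltransferase of 28S ribosomal RNA, had the highest value of the role in Dp44mT. Its intensities were 1361 and 1827 in control, 1403 and 841 in DFO, and 1621 and 740 in Dp44mT. The normalized difference of NOP2 was −0.14 in DFO and 0.21 in Dp44mT, where it turned to −0.15 with array medians subtracted and −0.52 on the deposited scale. All genes had medians of −0.13 and −0.503 in Dp44mT under these scalings, so NOP2 lay close to them. NOC2L stood at −0.15 and 0.06 (−0.30 in Dp44mT with array medians subtracted), its partner in early large subunit particles NOC3L at −0.40 and −0.46, and the precursor methyltransferase FTSJ3 at −0.33 and −0.51.

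Of 42 further large subunit genes, 33 were below 0 in DFO and 29 in Dp44mT (medians −0.31 and −0.29). METTL18, a histidine methyltransferase that acts on a large subunit protein, fell by 1.57 in Dp44mT (log2, limma adjusted p = 0.0477) and stood at −1.35 in DFO (adjusted p = 0.117). ZNF622, which acts in the late cytoplasmic steps of large subunit maturation, rose by 1.16 in Dp44mT (log2, limma adjusted p = 0.0377) and stood at 0.72 in DFO (adjusted p = 0.174). Named after their values were seen, RPF2, the partner of RRS1, stood at −0.30 and −0.04, and RPL11, a protein of the 5S particle they carry, at −0.01 and −0.04. Exosome and trimming genes had medians of −0.42 and −0.45 over 25 genes, and 0 passed.

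**Figure D4:**
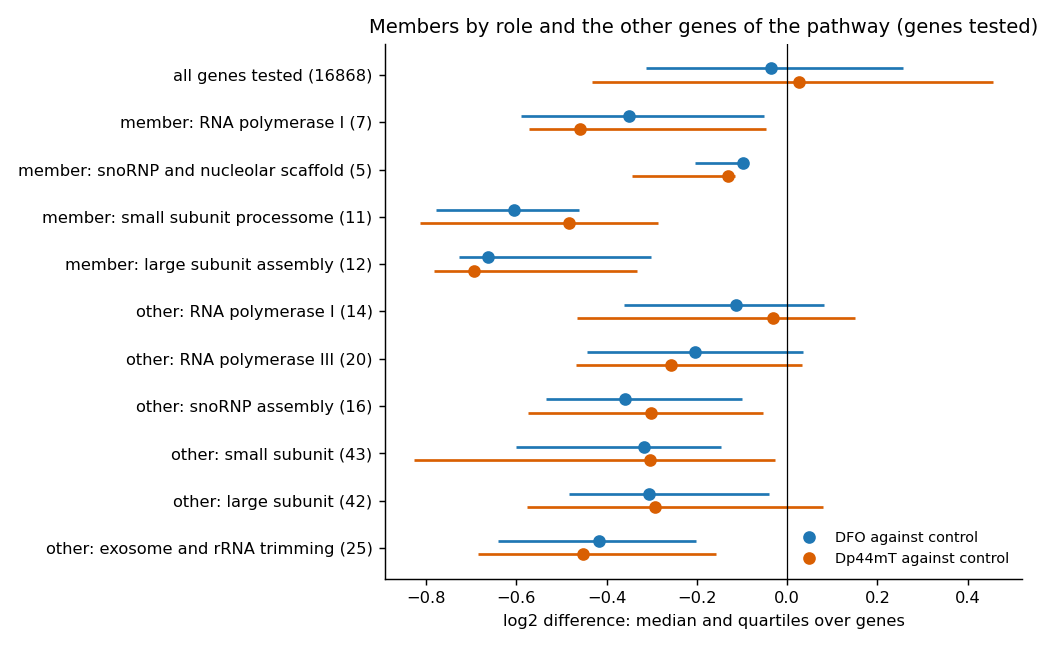
Median (points) and quartiles (lines) of the log2 difference over the genes of each role and list, for DFO (blue) and Dp44mT (orange) against control; the number of genes tested stands in brackets. After quantile normalization, large subunit members lie at −0.66 and −0.69, and snoRNP and scaffold members at −0.10 and −0.13.

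No member passed the test between the chelators. Dp44mT against DFO gave a members' median of −0.02, with 18 of 35 below 0 (46.7% of all genes tested) and single values from −0.41 (RRS1) to 0.43 (RRP12). That count depended on the scaling and on single arrays. It was 33 on the deposited scale (median −0.32), where 73.0% of all genes were below 0 (median −0.236). With array medians subtracted it was 28 (median −0.17), against 59.5% of all genes (median −0.09). Without the Dp44mT array of set 1 it was 27 (median −0.16), against 54.1% of all genes (median −0.047). Without that of set 2 it was 7 (median 0.25), against 43.8% of all genes (median 0.045). In limma, 0 members passed (0.00% of all genes), and 0 had an unadjusted p under 0.05, against 2.71% of all genes lower and 1.55% higher at that limit (718 genes). The 95% interval was −0.98 to 0.16 for RRS1, −0.93 to 0.16 for UTP20 and −0.05 to 0.91 for RRP12, which leaves room for differences of nearly 1 on the log2 scale. That fit ignored the set, although set deviations of the chelators correlated at 0.843. With the set as a block on the chelator arrays alone, chosen after seeing the data, 0 members passed in limma. There, 3 members and 3955 genes had an unadjusted p under 0.05, and the interval for RRS1 was −0.76 to −0.07. Both Dp44mT arrays lay below both DFO arrays in 5 members and above in 7 (13.1% and 14.4% of all genes). The doses differed, 250 and 25 µM, so the comparison sets these treatments side by side and not equal amounts of the agents.

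Genes that act upstream of ribosome production moved in different directions. MYC had intensities of 1962 and 3263 in control, 2452 and 1379 in DFO, and 2658 and 1023 in Dp44mT. Its normalized difference was −0.04 and 0.09 (limma adjusted p = 0.957 and 0.784). MYCL, the family member amplified in a part of small cell lung cancers, had intensities of 1547 and 1766 in control, 552 and 246 in DFO, and 223 and 131 in Dp44mT. MYCL fell by 1.76 and 2.47 on the log2 scale (limma adjusted p = 0.0292 and 0.0104). MYCN stood at 1.56 and 2.00 without passing, from intensities of 333 and 75.6 in control, 253 and 666 in DFO and 212 and 933 in Dp44mT, and was thus high on the set 2 chelator arrays and low on the set 2 control array.

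Other genes of the MYC network rose or fell by gene. MXI1 rose by 1.36 and 1.39 (limma adjusted p = 0.0411 and 0.0263), and MXD1 rose by 2.19 in Dp44mT (adjusted p = 0.0273) and stood at 1.78 in DFO (adjusted p = 0.0685). MXD3 fell by 2.33 in Dp44mT (limma adjusted p = 0.0477) and stood at −1.19 in DFO. MAX, MNT and MLX stood between −0.05 and −0.39 in DFO and between −0.15 and −0.56 in Dp44mT and did not pass.

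Iron enters ribosome production through a few proteins that need it as a cofactor. Of 7 such genes measured, 0 passed in DFO and KDM2A passed in Dp44mT. KDM2A, a JmjC demethylase reported at ribosomal DNA, had intensities of 440 and 526 in control, 861 and 431 in DFO, and 936 and 438 in Dp44mT, and rose by 1.095 (log2, limma adjusted p = 0.0417) in Dp44mT. In set 2 the deposited intensity of KDM2A was lower in Dp44mT than in control, so a rise in that set rests on the normalization. Its call under other scalings is not given here. The ribosomal oxygenase genes RIOX1 and RIOX2 stood at −0.94 and −1.09 in DFO and at −0.93 and −0.997 in Dp44mT, and OGFOD1, the prolyl hydroxylase of a small subunit protein, at 0.28 and 0.65. ABCE1, the iron-sulfur protein of ribosome recycling, stood at −0.55 and −0.84, PHF8 at −0.48 and −1.49 and KDM2B at 0.12 and 0.03. Also named after their values were seen, CDKN1A, a target of the p53 response that free 5S particles can set off through MDM2, stood at 1.68 and 1.63, and MDM2 itself at −0.17 and −0.28, and neither passed.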

How the data were processed

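RNA of DMS-53 cells was measured on 6 arrays, 2 per group. The authors deposited a linear intensity for each probe set. Per the submitters' processing notes, the software was Affymetrix Expression Console 1.1. The summarization and normalization are not given in the sources used here. Every value column was used. Intensities were transformed as log2(intensity + 16) and quantile normalized with limma 3.58.1 in R 4.3.3. Genes were named by the platform annotation (1 symbol for 41097 probe sets, several for 1801, none for 11777), each gene was represented by its brightest probe set with 1 symbol, and genes with a mean under the 25th percentile of all probe sets (5.55) were left out. All 3 groups entered 1 limma fit, and contrasts were tested two-sided with its moderated statistic (3 residual and 2.22 prior degrees of freedom) and Benjamini-Hochberg adjustment over 16868 genes, called at 0.05. The same fit was run over probe sets. With 2 arrays on each side, exact permutation p-values start at 0.333, so none were computed. The number of arrays limits the precision: 95% intervals had a median half-width of 0.64.

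Members could all be named, with intensities for the one that passed and the lowest and highest of each role in Dp44mT against control; from other lists, genes that passed were named, with the MYC genes, the iron-dependent factors and TFRC, NDRG1 and VEGFA. Further members are shown with intensities for illustration. Members and lists were chosen with earlier results of these data known. The script was tested on simulated data.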

Additional observations from a re-analysis of the deposited data

How the results depend on the processing

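Alternatives covered the scaling, pseudocount, filter, probe set rule, groups in the fit, variance prior, set block and each array left out. The members' median kept its sign against control under all of them, but several could not change it. The variance prior, the set block, the groups in the fit and the other chelator's arrays do not enter the difference of group means. Removing the filter left the same members. Under the settings that could move it, the median ran from −0.83 to −0.35 in DFO and from −1.13 to −0.28 in Dp44mT. On the deposited scale it was −0.83 for DFO and −1.13 for Dp44mT (all genes −0.325 and −0.503). The number of members called lower in DFO was 0 on the deposited scale, 0 with array medians subtracted, 0 with only the 2 groups in the fit and 0 without both set 2 chelator arrays. In Dp44mT it was 2 with probe sets averaged and 3 with an intensity trend. With 1 array left out, the number called lower ranged from 0 to 0 in DFO and from 0 to 1 in Dp44mT. Leaving out a control array or an array of the chelator concerned took the number of all genes called to 0 for each chelator, so every call named in the report ends there. Leaving out an array of the other chelator left 61 (DFO) and 403 (Dp44mT). Without both set 2 chelator arrays, 0 genes were called in DFO and 844 in Dp44mT, where each chelator had 1 array, assumed to vary like the 2 control arrays. For Dp44mT against DFO, 33 members were below 0 on the deposited scale (median −0.32) and 28 with array medians subtracted (73.0% and 59.5% of all genes). With 1 array left out that number ranged from 7 (without Dp44mT replicate 2) to 27 (without Dp44mT replicate 1) and the median from −0.16 to 0.25. Of all genes, 43.8% and 54.1% were below 0 without replicate 2 and without replicate 1 of Dp44mT. Over all genes, 185 were called in DFO (94.6% higher) and 569 in Dp44mT (56.8% higher), against 26 (69.2%) and 66 (37.9%) on the deposited scale, 98 and 303 (38.6%) with array medians subtracted, 400 and 1264 with the trend and 61 and 403 with only the 2 groups. With a pseudocount of 64, 919 were called in Dp44mT. Deviations from group means within a set correlated at 0.843 between DFO and Dp44mT but at −0.254 and −0.353 with control, so the set numbers tied the chelator arrays together but not the control arrays, and a pairing of all groups was not assumed. With the set as a replicate block, 1 member was again called lower for each chelator (medians −0.54 and −0.48, which the block cannot change) and 0 in the direct comparison, and 909 genes were called in Dp44mT. With only the 4 chelator arrays and the set as a replicate block, chosen after seeing the data, the differences are the same by construction. The 18 members below 0 (median −0.02) could therefore not change. In limma 0 of 16868 genes and 0 members were called, and 3955 genes and 3 members had an unadjusted p under 0.05. Those members were RRS1 (−0.41, 95% interval −0.76 to −0.07, adjusted p = 0.18), UTP20 (−0.39, −0.75 to −0.02, adjusted p = 0.202) and RRP12 (0.43, 0.07 to 0.79, adjusted p = 0.179). The median half-width of member intervals was 0.36, against 0.56 without the block. Restricting the test to genes as bright as the dimmest member, an alternative chosen after seeing the data, kept all 35 members by construction. Their differences, and so the 31 and 29 below 0, could not change. Of all genes, 54.9% and 50.8% were below 0 there, with medians of −0.05 and −0.01 (DFO, then Dp44mT).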
